A study of Homo sapiens with 6 samples.

Results

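Expression of 9 genes was described here: the steroid receptor genes ESR1, PGR and NR3C1, the luminal lineage factor genes FOXA1, GATA3 and SPDEF, and the AP-2 genes TFAP2A, TFAP2B and TFAP2C. They were taken by name from a deposited table of 62438 genes, where all 9 were found. RNA was sequenced from cells of the human breast cancer line that the labels call MDA-MB-453, grown in DMEM with serum. The cells had been transfected with Lipofectamine RNAiMAX and 10 nM of an siRNA against N6AMT1, a methyltransferase gene (si-N6AMT1, n = 3), or of a scrambled siRNA (si-CN, n = 3), and the labels give 48 h of transfection. The study asked which genes respond to loss of N6AMT1. The sources used here name one line, do not say whether the siRNA was a single sequence, and call the extracts triplicate without saying that they came from separate cultures, so p-values measure only the spread between these libraries, which may be technical.

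Steroid receptors are ligand-activated transcription factors. ESR1 encodes oestrogen receptor alpha, PGR the progesterone receptor and NR3C1 the glucocorticoid receptor. In luminal breast epithelium, FOXA1 opens chromatin for steroid receptors, GATA3 maintains luminal differentiation, SPDEF is an ETS factor of luminal and secretory cells, and AP-2 proteins act at many of the same enhancers. MDA-MB-453 is usually described as a luminal line with apocrine features that lacks oestrogen and progesterone receptors.

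Of the 9 genes, 5 reached 1 TPM in si-CN and the other 4 were at or near zero. TFAP2A rose by 13.7% after si-N6AMT1 and was called in 14 of 14 alternative fits, and NR3C1 fell by 6.19% but was called in 10 of 14, while TFAP2C, FOXA1 and GATA3 did not pass the test. TPM, a level divided by transcript length and scaled to the same total in every library, was used to compare genes. CPM, counts scaled by library size with edgeR's TMM factors, was used to compare libraries for one gene.

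Promoter windows are shown for 4 genes because 2 of them, NR3C1 and TFAP2A, had the highest levels and the other 2, SPDEF and TFAP2B, were near zero. Each window holds 250 bases before and 50 bases after the start of the gene's reference transcript in GRCh37 (hg19), read 5′ to 3′ on the gene's strand, with CG dinucleotides in capitals. The windows are chr5:142783202-142783501 on the minus strand for NR3C1, chr6:10415258-10415557 on the minus strand for TFAP2A, chr6:34524057-34524356 on the minus strand for SPDEF and chr6:50786334-50786633 on the plus strand for TFAP2B.
NR3C1: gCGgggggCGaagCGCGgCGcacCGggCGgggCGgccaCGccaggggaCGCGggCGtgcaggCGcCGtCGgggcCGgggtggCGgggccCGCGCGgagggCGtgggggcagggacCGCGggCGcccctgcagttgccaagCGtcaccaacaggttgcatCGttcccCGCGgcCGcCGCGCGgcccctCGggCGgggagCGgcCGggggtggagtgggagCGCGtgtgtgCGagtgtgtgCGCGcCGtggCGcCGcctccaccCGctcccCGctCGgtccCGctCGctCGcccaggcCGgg
TFAP2A: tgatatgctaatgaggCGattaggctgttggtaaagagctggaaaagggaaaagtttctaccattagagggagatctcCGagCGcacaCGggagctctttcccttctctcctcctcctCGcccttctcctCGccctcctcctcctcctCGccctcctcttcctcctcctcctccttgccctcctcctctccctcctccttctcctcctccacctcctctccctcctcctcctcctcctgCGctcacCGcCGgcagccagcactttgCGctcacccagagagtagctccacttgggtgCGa
SPDEF: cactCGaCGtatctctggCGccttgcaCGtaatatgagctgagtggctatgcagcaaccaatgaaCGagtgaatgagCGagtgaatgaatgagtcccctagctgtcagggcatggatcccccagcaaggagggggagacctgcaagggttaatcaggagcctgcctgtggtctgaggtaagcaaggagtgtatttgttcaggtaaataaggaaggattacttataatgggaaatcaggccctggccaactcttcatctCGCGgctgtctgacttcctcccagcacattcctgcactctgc
TFAP2B: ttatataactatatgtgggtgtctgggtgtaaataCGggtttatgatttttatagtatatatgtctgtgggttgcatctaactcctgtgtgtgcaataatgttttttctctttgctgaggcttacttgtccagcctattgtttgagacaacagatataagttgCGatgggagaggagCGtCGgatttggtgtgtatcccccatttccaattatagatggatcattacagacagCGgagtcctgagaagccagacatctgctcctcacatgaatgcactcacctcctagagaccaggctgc

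The NR3C1 window held 51 CG dinucleotides, more than 98.5% of the 20175 windows of protein-coding genes, whose median was 23 and whose middle range, from the 25th to the 75th percentile, was 9 to 32. TFAP2C held 36, FOXA1 34 and GATA3 29. Among the genes under 1 TPM, ESR1 held 17, SPDEF 8, PGR 7 and TFAP2B 5. Thus, 4 of the 5 genes above 1 TPM lay above the median window and all 4 genes below 1 TPM lay under it. The same split was not computed over all coding genes, so these counts are not read as particular to the 9. TFAP2A was the exception, with 12 CG dinucleotides and the highest level of the 9 genes. The windows rest on 1 reference transcript per gene and do not cover any further start sites, and DNA methylation was not measured in these libraries. On both strands, the AP-2 motif GCCNNNGGC occurred once, in the GATA3 window, and in 29.4% of all windows. The forkhead motif TGTTTAC, present in 2.45% of all windows, and the GATA motif AGATAA, present in 7.24%, were found in none of the 9. These are matches of letters only.

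**Figure D1:**
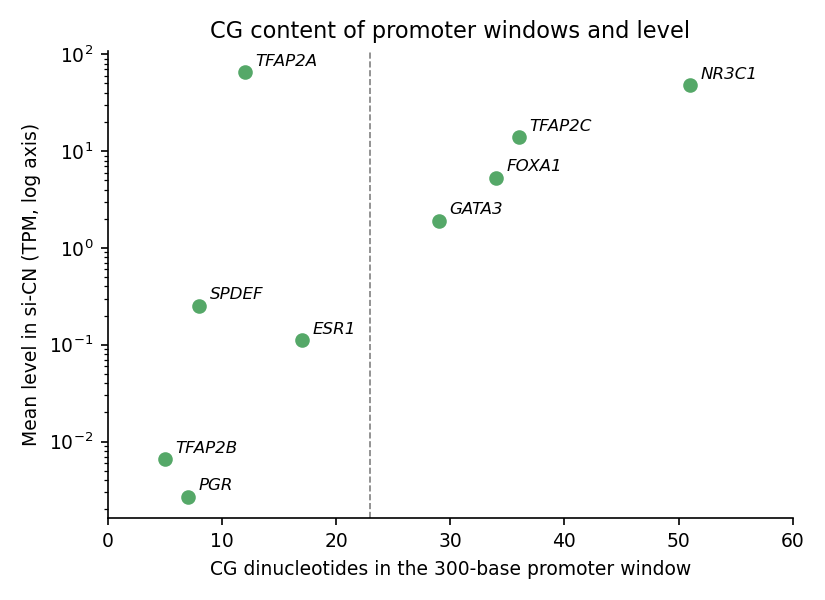
CG dinucleotides in the 300-base promoter window of each gene (x axis) against its mean level in the 3 si-CN libraries (y axis, TPM, log axis), 1 point per gene, with the median of all coding promoters, 23, as a dashed line. NR3C1, TFAP2C, FOXA1 and GATA3 lie to the right of the line and TFAP2A, at 12, lies to the left of it with the highest level.

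The deposited counts added up to between 19739247 and 21289740 per library, and a count of 0 in a library allows a level of up to 0.141 to 0.153 CPM (3 counts, counting error only). The targeted gene, N6AMT1 (ENSG00000156239), fell from 6.81 ± 0.145 to 3.18 ± 0.312 CPM (SD, n = 3 each; log2 fold change -1.10, FDR = 3.65e-07, edgeR's quasi-likelihood test with Benjamini-Hochberg adjustment), without overlap between groups. FDR below is from this test over 17320 genes. Of these, 11.5% were called lower and 9.78% higher in si-N6AMT1 (FDR under 0.05), and the groups did not overlap in 34.9%. The coefficient of variation between replicates that edgeR calls biological was 1.85%, a spread that may be technical.

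In si-CN, the 9 genes were ordered by TPM as TFAP2A, NR3C1, TFAP2C, FOXA1, GATA3, SPDEF, ESR1, TFAP2B and PGR. TFAP2A stood at 65.7 ± 0.85 TPM (SD, n = 3), above 87.1% of the 20019 coding genes ranked. NR3C1 followed at 48.0 ± 1.12 TPM, above 82.8% of them. The level of TFAP2A was thus 1.37-fold that of NR3C1, and the 3 values of each did not overlap. TFAP2C reached 13.9 ± 0.894 TPM, FOXA1 5.34 ± 0.47 TPM and GATA3 1.92 ± 0.282 TPM, each apart from its neighbours in all 3 libraries. TFAP2C stood above 61.2%, FOXA1 above 49.5% and GATA3 above 42.1% of the coding genes ranked. SPDEF, at 0.253 ± 0.128 TPM, overlapped ESR1, at 0.111 ± 0.0477 TPM. TFAP2B and PGR, at 0.00662 and 0.0027 TPM, overlapped each other. Without division by length, in CPM, NR3C1 came before TFAP2A and ESR1 before SPDEF. The order of the other 5 did not change.

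**Figure D2:**
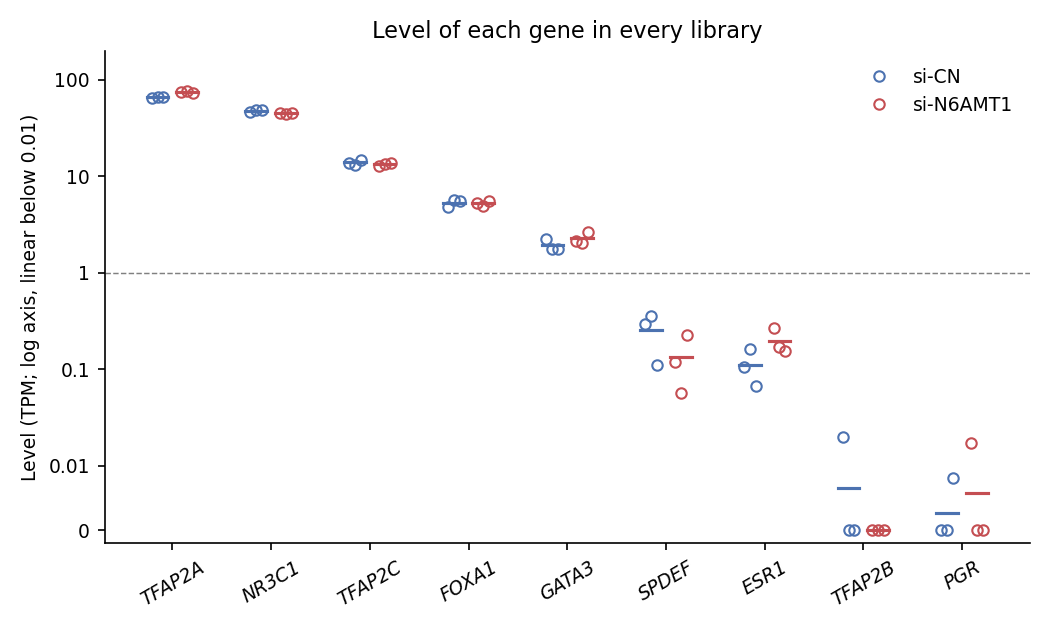
Level of the 9 genes in each library (y axis, TPM, log axis that is linear below 0.01), ordered by mean level in si-CN, with circles for libraries, short bars for group means and a dashed line at 1 TPM. TFAP2A, NR3C1, TFAP2C, FOXA1 and GATA3 lie above the line in all 6 libraries and the other 4 genes lie below it in all 6.

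Among ESR1, PGR and NR3C1, NR3C1 (ENSG00000113580, chr5:142657496-142815077, minus strand) was the only one with more than 15 counts in any library. It had 2831, 2910 and 3102 counts in si-CN replicates 1 to 3 and 2716, 2773 and 2836 in si-N6AMT1. In CPM these were 144.2, 147.8 and 146.3 against 137.0, 135.8 and 138.3. Every si-N6AMT1 library lay below every si-CN library. NR3C1 was downregulated (log2 fold change -0.09, standard error 0.0252, 95% interval -0.14 to -0.04, FDR = 0.0104 by edgeR's quasi-likelihood test). The two-sided exact permutation test on CPM gave p = 0.1, the smallest that 3 libraries against 3 allow. The change was small: 92.7% of all called genes changed by at least as much. The call was lost with DESeq2 (FDR = 0.0792), with edgeR when si-N6AMT1 replicate 2 (FDR = 0.0529) or si-CN replicate 2 (FDR = 0.0521) was left out, and with a replicate block and GC correction in edgeR (FDR = 0.199). In bulk RNA, fewer cells expressing a gene and less RNA per cell cannot be told apart.

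ESR1 (ENSG00000091831, chr6:151977826-152450754, plus strand) had 6, 9 and 4 counts in si-CN and 15, 10 and 9 in si-N6AMT1. The groups touched at 9 counts, and in CPM they overlapped, at 0.317 ± 0.135 against 0.562 ± 0.171 (SD, n = 3 each; two-sided exact permutation test, p = 0.2). PGR (ENSG00000082175, chr11:100900355-101000544, minus strand), a classical target of oestrogen receptor alpha, had 0, 0 and 1 counts in si-CN and 2, 0 and 0 in si-N6AMT1. No difference in ESR1 or PGR was detectable at this depth, and neither passed the filter on low counts. Over the 5 genes NR3C1, NR3C2, ESR1, ESR2 and PGR, NR3C1 made up 96.7% ± 0.478 of summed TPM in si-CN and 96.5% ± 0.598 in si-N6AMT1 (SD, n = 3 each; exact permutation test, p = 0.6, adjusted p = 0.6 over 6 shares). ESR2, the gene of oestrogen receptor beta, stood at 0.896 ± 0.162 TPM in si-CN. NR3C2, the mineralocorticoid receptor gene, stood at 0.61 ± 0.0387 TPM.

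Among the luminal lineage factors, FOXA1 (ENSG00000129514, chr14:38058757-38065264, minus strand) had 151, 176 and 183 counts in si-CN and 166, 160 and 180 in si-N6AMT1. Its level was 8.42 ± 0.649 CPM in si-CN and 8.33 ± 0.472 CPM in si-N6AMT1, and the groups overlapped. The log2 fold change was -0.02 (95% interval -0.21 to 0.18, FDR = 0.933 by edgeR's quasi-likelihood test), and its sign turned with 1 library left out in 3 of 6 cases. GATA3 (ENSG00000107485, chr10:8087341-8117161, plus strand) had 62, 48 and 51 counts in si-CN and 58, 59 and 75 in si-N6AMT1. The highest si-CN library, replicate 1 at 3.16 CPM, lay between the si-N6AMT1 libraries, which ran from 2.89 to 3.66 CPM. The log2 fold change of 0.25 had a 95% interval from -0.09 to 0.59 (FDR = 0.329 by the same edgeR test), which holds both no change and a rise of that size. SPDEF (ENSG00000124664, chr6:34505579-34524110, minus strand) had 5, 6 and 2 counts in si-CN and 2, 1 and 4 in si-N6AMT1. The groups overlapped, SPDEF was not tested across genes, and the exact permutation test on CPM gave p = 0.3.

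The AP-2 genes included the highest and the second lowest of the 9 levels. TFAP2A (ENSG00000137203, chr6:10393419-10419892, minus strand) had 1826, 1842 and 1951 counts in si-CN and 2076, 2210 and 2125 in si-N6AMT1. These were 93.0, 93.5 and 92.0 CPM against 104.7, 108.2 and 103.6 CPM. All 3 si-N6AMT1 libraries lay above all 3 si-CN libraries, by more than the spread within either group. TFAP2A was upregulated (log2 fold change 0.19, standard error 0.0289, 95% interval 0.13 to 0.24, FDR = 4.92e-05 by edgeR's quasi-likelihood test; exact permutation p = 0.1, the smallest possible). It was called in 14 of 14 alternative fits, with log2 fold changes from 0.17 to 0.20. Of all called genes, 49.7% changed by at least as much.

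Sequence of TFAP2A is shared in part with other transcripts. Of the 31-base words in its transcripts, read on either strand, 15.1% also occur in transcripts of other genes, mostly the antisense genes TFAP2A-AS2 and TFAP2A-AS1. The library kit marks strand, and the strand option of the counting is not given in the sources used here. TFAP2A-AS2 had 4.02 ± 0.405 CPM in si-CN and 4.48 ± 0.54 CPM in si-N6AMT1 (SD, n = 3 each). TFAP2A-AS1 had 1.15 ± 0.26 and 1.30 ± 0.165 CPM. Neither passed the test (FDR = 0.477 and 0.667 by edgeR), and both stood far below TFAP2A. The shared part was 4.78% for PGR and at most 1.44% for each of the other 7 genes.

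TFAP2C (ENSG00000087510, chr20:55204362-55214339, plus strand) had 354, 330 and 403 counts in si-CN and 326, 354 and 368 in si-N6AMT1. Its level was 17.9 ± 1.12 CPM against 17.2 ± 0.754 CPM, with overlap between groups (log2 fold change -0.06, 95% interval -0.20 to 0.08, FDR = 0.611 by edgeR's quasi-likelihood test). TFAP2B (ENSG00000008196, chr6:50786436-50815332, plus strand) had 1 count in si-CN replicate 1 and 0 in the other 5 libraries. In the summed TPM of the 5 AP-2 genes, TFAP2A took 81.7, 82.8 and 80.7% in si-CN and 84.0, 84.4 and 83.2% in si-N6AMT1. TFAP2C took 17.4, 16.3 and 18.3% against 14.5, 14.9 and 15.8%. Neither share overlapped between groups, and each gave an exact permutation p = 0.1 (adjusted p = 0.2 over 6 shares), which is not below the threshold and cannot be in this design. The shares of TFAP2A and TFAP2C nearly fill the same sum, so they mirror each other and are not separate results.

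**Figure D3:**
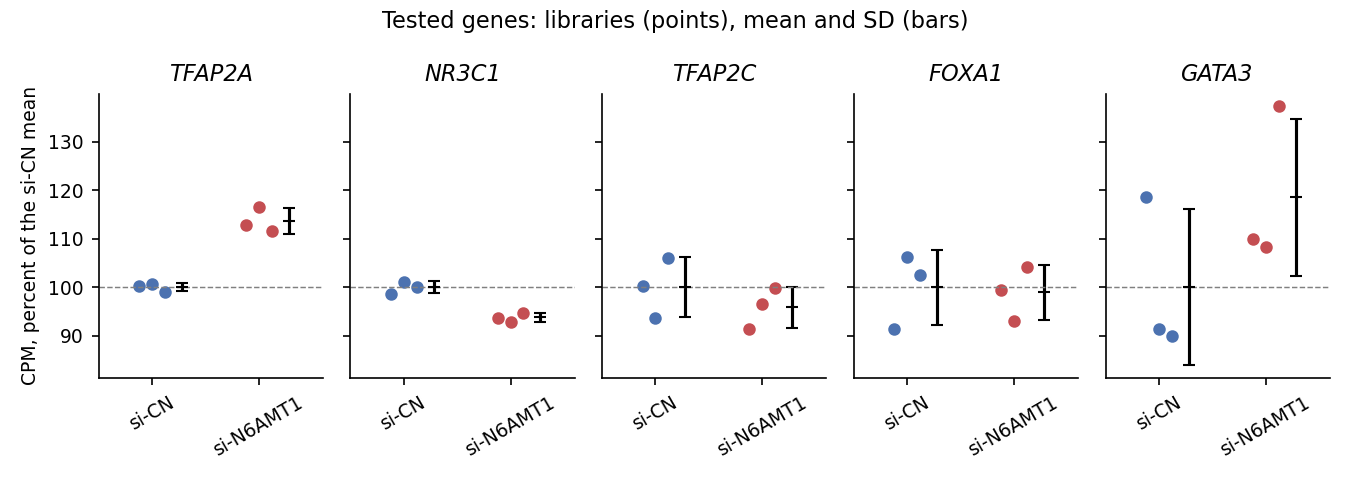
TMM-scaled CPM of the 5 tested genes in each library, as percent of the gene's si-CN mean (y axis), with points for libraries and bars for the mean and SD of each group of 3. TFAP2A libraries of si-N6AMT1 lie above and NR3C1 libraries lie below all si-CN libraries, and the groups overlap for TFAP2C, FOXA1 and GATA3.

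In all, 5 of the 9 genes were tested, each with at least 48 counts in every library. Of these 5, 1 was called lower (11.5% of all tested genes were), 1 was called higher (9.78% of all tested genes were), and the groups did not overlap for 2 (34.9% of all tested genes). Their median log2 fold change was -0.02 against 0.0 over all tested genes. The genes of highest likeness to TFAP2A, by Pearson correlation of log2 CPM over the 6 libraries, were PEDS1 (r = 0.9972), MIR222HG (r = 0.9968) and CALR (r = 0.9968) of 17320 genes. The 6 points fall in the 2 groups, so any gene with a like difference between groups scores high.

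Paralogs of the lineage factors were measured beside them. GATA6, a factor of endodermal tissues, was the highest of the 6 GATA genes at 24.3 ± 0.585 TPM in si-CN, and it rose to 27.0 ± 0.568 TPM (log2 fold change 0.16, FDR = 0.00589 by edgeR). With DESeq2 the FDR of GATA6 was 0.0998, the highest of 14 alternatives, and it was called in the other 13. GATA3 made up 4.22% ± 0.705 of the summed GATA TPM in si-CN and 4.68% ± 0.54 in si-N6AMT1 (exact permutation p = 0.5, adjusted p = 0.6). Over the 3 FOXA genes, FOXA1 made up 57.6% ± 3.27 against 56.2% ± 2.92 (exact permutation p = 0.6, adjusted p = 0.6). Of the 9 paralogs listed, 5 were tested and GATA6 was the 1 called, and FOXA3, GATA5 and TFAP2D had no count in any library.

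The labelled line was checked against marker genes. Of 17 luminal epithelial markers, 12 reached 1 TPM in si-CN, with a median of 24.2 TPM. KRT8, KRT18 and KRT7, keratins of simple epithelium, were the highest at 748.0, 725.6 and 593.7 TPM. Of 25 basal and mesenchymal markers, 24 reached 1 TPM, with a median of 248.8 TPM. KRT17, a basal keratin, stood at 4175.9 TPM, ANXA1 at 1500.7 TPM and LAMB3, a laminin chain of basal epithelium, at 1365.6 TPM. Of 16 apocrine and androgen-responsive genes, 8 reached 1 TPM, and PIP, UGT2B11, UGT2B28, CLDN8 and KLK3 had no count in any library. Thus 12 of 17 luminal markers were at 1 TPM or more and the rest below it, beside higher basal and mesenchymal markers. Of 18 other luminal and epithelial transcription factors, 14 reached 1 TPM, and GRHL2 was near zero at 0.0211 TPM in si-CN. The near-zero SPDEF and the 5 apocrine or androgen-responsive genes without a count go against the usual description of MDA-MB-453. FOXA1 and GATA3 passed 1 TPM but stood above only 49.5% and 42.1% of the coding genes ranked. The label is kept here only as the name of the libraries. In the 6 libraries KRT17 lay between 4047.6 and 4203.3 TPM, and SPDEF had at most 6 counts.

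Summed luminal markers ran from 2894.8 to 2923.7 TPM in si-CN and from 2984.4 to 3015.3 TPM in si-N6AMT1, where EPCAM was lower (log2 fold change -0.12, FDR = 7.94e-04 by edgeR) and KRT8 higher (0.12, FDR = 1.26e-04). Summed basal and mesenchymal markers ran from 14062.2 to 14175.8 TPM and from 14285.9 to 14536.7 TPM. In that list, PLAU, the urokinase gene, fell (log2 fold change -0.85, FDR = 8.19e-16 by edgeR) and ANXA1 rose (0.24, FDR = 2.84e-08). Both sums were higher in si-N6AMT1, as TFAP2A was, and their part in the result for TFAP2A was not tested. Over all tested genes 11.5% were called lower and 9.78% higher. Of the luminal markers tested, 2 of 14 fell and 5 rose, with 1 to 2 lower and 2 to 5 higher over the alternatives. Of the basal and mesenchymal markers, 5 of 25 fell and 10 rose. In this fit, the share called higher was thus above that over all tested genes in either list. The share called lower was above it in the basal and mesenchymal list. The 2 of 14 luminal markers called lower are too few to tell from 11.5%, and became 1 under some alternatives. The median levels of the lists in si-CN were 24.2 and 248.8 TPM, and how level bears on the share called was not tested. Markers of other cell types were low. Fibroblast markers summed to 24.6 to 27.4 TPM in si-CN and 25.8 to 28 TPM in si-N6AMT1 (3 of 7 at 1 TPM or more, COL1A1 highest at 17.2 TPM), and both of the endothelial markers found were below 1 TPM (VWF highest, 0.241 TPM). The leukocyte list was carried by the lysosomal gene CD68, the 1 of 5 at 1 TPM or more, which rose from 185.2 to 261.8 TPM (log2 fold change 0.50, FDR = 1.64e-12 by edgeR).

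**Figure D4:**
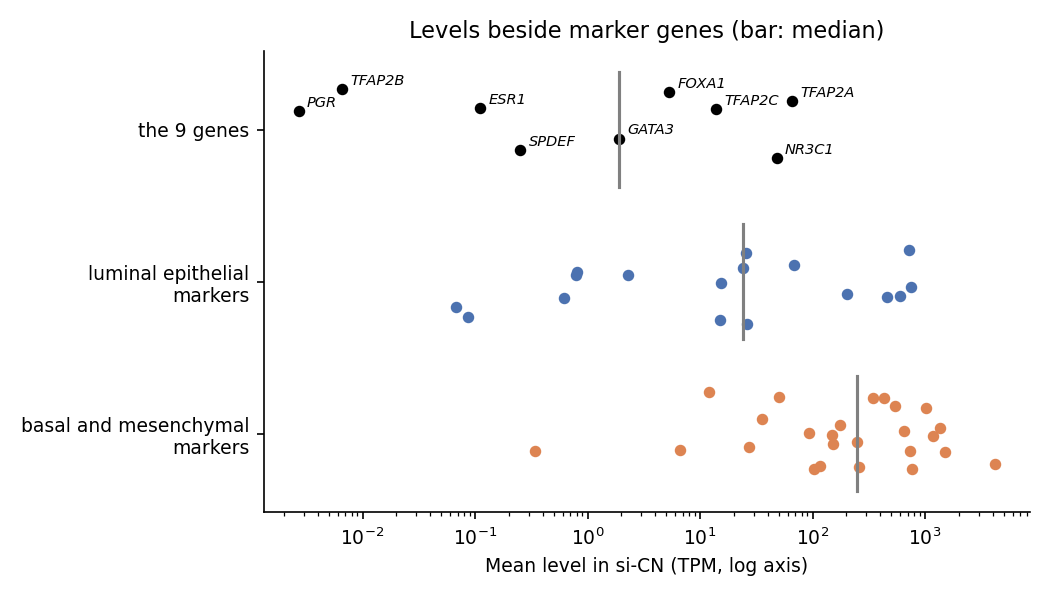
Mean level in the 3 si-CN libraries (x axis, TPM, log axis) of the 9 genes, of 17 luminal epithelial markers and of 25 basal and mesenchymal markers, 1 point per gene, with a bar at each median. The medians are 1.92, 24.2 and 248.8 TPM.

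Genes that work with or respond to these factors were listed from general knowledge, and their counts stand beside the 11.5% lower and 9.78% higher calls over all tested genes. The lists were not matched to those genes by level. Median levels in si-CN were 42 TPM for the coregulators and chaperones and 37.6 TPM for the glucocorticoid-responsive genes. How level bears on the share called was not tested. Of 33 other nuclear receptors, 28 were tested, 3 fell and 7 rose (median log2 fold change 0.02). NR4A1, an immediate early orphan receptor, rose from 28.9 ± 0.438 to 47.5 ± 1.33 TPM (log2 fold change 0.72, FDR = 1.09e-11 by edgeR), the largest change in the list. NR1D1, the clock repressor REV-ERB alpha and the highest of the list at 132.8 TPM in si-CN, fell to 115.9 TPM (-0.19, FDR = 7.41e-06). All 29 receptor coregulators and chaperones were tested, 9 fell and 4 rose (median -0.05). NCOA3, a steroid receptor coactivator, fell from 63.7 to 53.5 TPM (-0.25, FDR = 1.53e-06), HSPA8, a chaperone of receptor folding, rose from 678.4 to 773.6 TPM (0.19, FDR = 2.42e-07), and HSP90AA1 stood at 1221.9 and 1226.7 TPM (0.01, FDR = 0.839). With DESeq2, 3 coregulators were called lower and 2 higher, and with each library left out 4 to 8 were lower and 2 to 5 higher. Of 18 other luminal and epithelial transcription factors, 16 were tested. CBFB, the partner of RUNX factors, fell (-0.28, FDR = 9.49e-06), EHF, an epithelial ETS factor, rose (0.45, FDR = 0.00724), as did LMO4 (0.22), and XBP1, the highest at 98.2 TPM, had a log2 fold change of -0.00 (FDR = 0.945). The calls on EHF and LMO4 were lost with DESeq2 and without si-CN replicate 1, and that on LMO4 also without replicate 2 of either group.

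Lists of genes that respond to the receptors moved in both directions. Of 18 glucocorticoid-responsive genes, 17 were tested, 5 fell and 3 rose, with a median log2 fold change of -0.02, beside the fall of NR3C1 by 6.19%. PER1, a clock gene, fell from 27.9 ± 0.786 to 22.6 ± 0.873 TPM (log2 fold change -0.30, FDR = 3.71e-06 by edgeR), and the metallothionein MT2A, the highest at 7220.8 TPM, fell to 6592.3 TPM (-0.13, FDR = 6.18e-04). DUSP1, a MAP kinase phosphatase, rose from 96.1 ± 2.52 to 124.5 ± 2.76 TPM (0.38, FDR = 2.02e-09). Of 21 oestrogen-responsive and luminal genes, 13 were tested, 3 fell and 1 rose (median -0.07), and TFF3, AGR3 and CXCL12 had no count. CCND1, the cyclin D1 gene, fell from 101.5 ± 1.94 to 68.2 ± 1.42 TPM (-0.57, FDR = 1.91e-13), SIAH2 and NAT1 were the others lower, NAT1 in 10 of 14 alternatives, and STC2 was the highest at 185.5 TPM (-0.03, FDR = 0.388). PDZK1 rose from 1.97 to 2.84 TPM (0.52, FDR = 0.0464), a call made in 5 of 13 alternative fits (FDR 0.0339 to 0.194) and lost without replicate 1 or 2 of either group. Of the apocrine and androgen-responsive genes, 7 were tested, 2 fell and 1 rose (median 0.02). FASN, fatty acid synthase, fell from 69.8 to 59.4 TPM (-0.23, FDR = 7.99e-07), KYNU, kynureninase, rose from 11.8 to 15.9 TPM (0.43, FDR = 3.32e-10), and ALCAM was the highest at 194.5 TPM (0.05, FDR = 0.0836).

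The 3′ UTR sites TTCACAT and TCACATA were searched because an earlier analysis of these same fold changes picked those letters, so a link to the direction of change is not independent evidence. Of the 9 genes, PGR held 6 sites, NR3C1 2 and FOXA1 1, while ESR1, GATA3, SPDEF, TFAP2A, TFAP2B and TFAP2C held none. The windows of the 3 sites in NR3C1 and FOXA1, both tested, are given with the site in capitals. They lie at chr5:142660277-142660306 and chr5:142659385-142659414 for NR3C1 and at chr14:38059659-38059688 for FOXA1, all on the minus strand in GRCh37.
NR3C1, first site: agacacccattTTCACATtcccatctgtca
NR3C1, second site: agcgggttactTTCACATAcagccctcccc
FOXA1: tcattctgaggTCACATAacacataaaatt

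The second NR3C1 site joins both 7-base sequences in 8 bases. Of 13301 tested coding genes, 22.2% held a site, as did 44% of those called lower and 11.7% of those called higher. As the letters were picked from these fold changes, the shares are not independent evidence. NR3C1, called lower, held sites and TFAP2A, called higher, held none. FOXA1, which held 1, and GATA3 and TFAP2C, which held none, were not called. The NR3C1 3′ UTR is 3955 bases long and that of TFAP2A 1740. Of tested genes with a 3′ UTR of at least 3000 bases, 53.5% held a site.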

How the data were processed

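RNA-seq of 6 libraries was analysed. Per the labels, the authors trimmed reads with Trim Galore and estimated counts with kallisto v0.46.0 on hg19. They deposited estimated counts (expected counts) per gene as whole numbers, without normalization. The strand option is not given in the sources used here. Replicate numbers and groups came from the sample labels.

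R v4.3.3 with edgeR v4.0.16 was used to test the counts (filterByExpr at its minimum count of 10, TMM, quasi-likelihood test on all 6 libraries with no covariate, Benjamini-Hochberg adjustment over 17320 genes, FDR threshold 0.05). Standard errors were obtained from the log2 fold change and its F statistic. TPM used 1 reference transcript per gene (MANE or canonical, otherwise the longest) in GENCODE on GRCh37, which 62149 genes had. Annotation, promoter windows, 31-base words and 3′ UTR sites come from that reference. Library pairs within a group differed by more than sampling noise (chi-square per degree of freedom 1.37 to 1.77), and all 6 were kept. That excess may be technical and does not show that the extracts came from separate cultures. The edgeR procedure was tested on simulated data with the same dispersion for every gene. Of genes changed 1.5-fold, 75.4% were recovered, and 3.29% of calls were false. Changes as small as those of TFAP2A and NR3C1 were not simulated. Exact permutation tests used scipy v1.17.1 in Python v3.11.15.

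The 9 genes and the lists were chosen with earlier results of these data known. Genes named are the 9, N6AMT1, in each list the called gene of smallest FDR in each direction and the highest gene in TPM (3 in the luminal and basal lists), and the 3 genes most like the member of smallest FDR. Counts of 5 or fewer are also named, and ESR2, NR3C2, GRHL2 and the TFAP2A antisense genes were named after their values were seen. Of the nuclear receptor list, 1 gene is not reported here. Alternatives were RLE size factors, DESeq2 v1.42.0, limma-voom (limma v3.58.1), no expression filter, a filter of 1 TPM, mitochondrial genes left out, a replicate block with and without GC correction, each library left out, transcript length and CPM.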

Additional observations from a re-analysis of the deposited data

How the results depend on the processing

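TFAP2A remained the 1 gene called higher among the 9 in all 14 alternative fits (FDR 4.01e-07 to 0.00083), and N6AMT1 was called lower in all 14. The number called lower, 1 (NR3C1), became 0 with DESeq2 and 0 with a replicate block and GC correction, and ran from 0 to 1 with each library left out. NR3C1 was called in 10 of 14 alternatives, with log2 fold changes from -0.10 to -0.06 and FDR from 0.0107 to 0.199. The cause was not tested. The FOXA1 log2 fold change ran from -0.08 to 0.03 with each library left out, and was 0.03 without si-N6AMT1 replicate 2, 0.03 without si-CN replicate 2 and 0.0036 without si-CN replicate 3. DESeq2 called 1136 genes lower and 796 higher over all genes. GATA3 was called in 0 of 13 alternatives, and DESeq2 gave it no adjusted p.

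Same-numbered libraries did not deviate together (r = -0.0381, -0.0422 and 0.00997), so no pairing by number was seen. These deviations hold counting noise, so the check cannot exclude a pairing. With the replicate number as a block, 1 gene was called lower and 1 higher, and NR3C1 had an FDR of 0.0285 by edgeR.

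With the length of each gene's longest transcript, levels in si-CN were 68.4 TPM for TFAP2A, 56.6 for NR3C1, 17.7 for TFAP2C, 6.78 for FOXA1 and 2.44 for GATA3, and those of the other 4 moved by less than 1 SD. Of 336 counts over gene lists, 300 stayed within 1.5 times and 36 did not. KRT18 was called in 11 of 14 alternatives and LAMB3 in 13, both losing the call with the replicate block and GC correction. Depth limits ESR1, PGR, SPDEF and TFAP2B, which had at most 15 counts in any library.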
